A study of Mus musculus with 23 samples.

Results

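The genes described here are 37 mitosis and spindle genes of the mouse, followed in F9 cells during 48 h of retinoic acid (RA). They were chosen by symbol from a list of proteins that drive cells into mitosis, build the spindle, hold and separate chromosomes, and divide the cell. All 37 symbols matched a gene of the count tables, which list 36814 genes, and all 37 passed the filter for low counts, which kept 16155 genes. F9 is an embryonal carcinoma line, a stem-like tumour line that RA turns towards primitive endoderm. The groups were 4 mRNA-seq libraries of F9 cells at 0 h, 2 libraries each after 6, 12, 24 and 48 h in all-trans RA at 1e-07 M, and 1 library each after 24 and 48 h in 0.001% DMSO, the solvent of RA. No group carried a genetic change according to the labels. The labels do not say whether replicates were separate cultures, so the p-values reflect only how far these libraries differ, which can be technical. The series holds 23 samples. The ChIP and total chromatin samples were not used here.

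Cells enter mitosis when CDK1, bound to an A- or B-type cyclin and switched on by CDC25 phosphatases, phosphorylates many substrates with the help of the kinases PLK1 and AURKA. Kinetochores then capture spindle microtubules, the chromosomal passenger complex corrects wrong attachments, and the spindle checkpoint holds CDC20, the activator of the anaphase-promoting complex, until all chromosomes are attached. Once released, this ubiquitin ligase has securin and cyclin B destroyed, separase cuts cohesin, and the cell divides. Most of these genes are transcribed late in the cell cycle, through promoters in which CCAAT boxes, bound by NF-Y, stand near a cell cycle genes homology region (CHR), bound by the MuvB complexes.

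The promoters show this arrangement. Promoters of 30 of the 37 genes were found in RefSeq for build GRCm38.p6, 33 promoters in all, each running from 250 bases before to 50 bases after the annotated start. A CHR core, written TTTGAA or TTCGAA and searched on both strands, stood in 27 of the 33 promoters (81.8%), against 19.2% of all 32851 promoters of this length. A CCAAT box on either strand stood in 26 of them (78.8%), against 37.4% of all promoters, and at least 2 boxes in 18 (54.5%), against 11.7%. Both motifs were held by 24 (72.7%), against 7.52% of all. The longer form TTTGAAA, which contains the core and is counted within it, stood in 11 (33.3%), against 6.5%. In the 250 bases before the start alone, the CHR core was in 42.4% of the promoters of these genes and in 17.1% of all. Many of the matches of the core therefore lie at or after the annotated start. The windows below run from 100 bases before to 30 bases after the start, with CHR cores and CCAAT boxes of either strand in capitals. They are shown for 3 of the genes that fell furthest at 48 h, for Ccnb1 and Cdk1, which form the entry kinase, and for Spc25, the gene that rose furthest.
Cdc20, chr4:118437314-118437443, minus strand: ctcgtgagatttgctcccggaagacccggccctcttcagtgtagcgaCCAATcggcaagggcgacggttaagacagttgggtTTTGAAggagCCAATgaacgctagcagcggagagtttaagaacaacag
Espl1, chr15:102296193-102296322, plus strand: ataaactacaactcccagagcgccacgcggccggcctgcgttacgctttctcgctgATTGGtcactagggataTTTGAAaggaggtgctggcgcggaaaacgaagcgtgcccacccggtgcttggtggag
Cdca8, chr4:124936888-124937017, minus strand: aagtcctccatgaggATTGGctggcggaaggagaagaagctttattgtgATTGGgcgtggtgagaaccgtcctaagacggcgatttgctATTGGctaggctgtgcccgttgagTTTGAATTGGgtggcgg
Ccnb1, chr13:100786457-100786586, minus strand: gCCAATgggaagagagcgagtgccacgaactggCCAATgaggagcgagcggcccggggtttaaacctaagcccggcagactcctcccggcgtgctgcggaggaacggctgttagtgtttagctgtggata
Cdk1, chr10:69352883-69353012, minus strand: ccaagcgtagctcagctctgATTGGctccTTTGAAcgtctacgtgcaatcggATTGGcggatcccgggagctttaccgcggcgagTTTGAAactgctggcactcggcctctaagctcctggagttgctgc
Spc25, chr2:69206184-69206313, minus strand: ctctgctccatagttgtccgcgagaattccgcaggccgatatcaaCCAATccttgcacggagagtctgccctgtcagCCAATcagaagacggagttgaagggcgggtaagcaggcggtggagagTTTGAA

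In the Cdc20 window the CHR core began 18 bases before the start, with CCAAT boxes 53 and 8 bases before it. Espl1 had a core 27 bases before the start and a box 44 bases before it. The Cdca8 window held 4 CCAAT boxes, the last of which overlaps the core, and Cdk1 held 2 cores. Ccnb1 showed 2 boxes and no core in these letters. Spc25 held 2 boxes and a core 25 bases after the start, so the motifs of the gene that rose were of the same kinds as those of genes that fell. The promoters of Mad2l1, Birc5, Nuf2 and Nusap1 held neither motif. Incenp, Kif20a, Tpx2, Dlgap5, Aurkb, Ccna2 and Cdc25c were not matched. A match of letters is not evidence that a factor binds there.

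**Figure D1:**
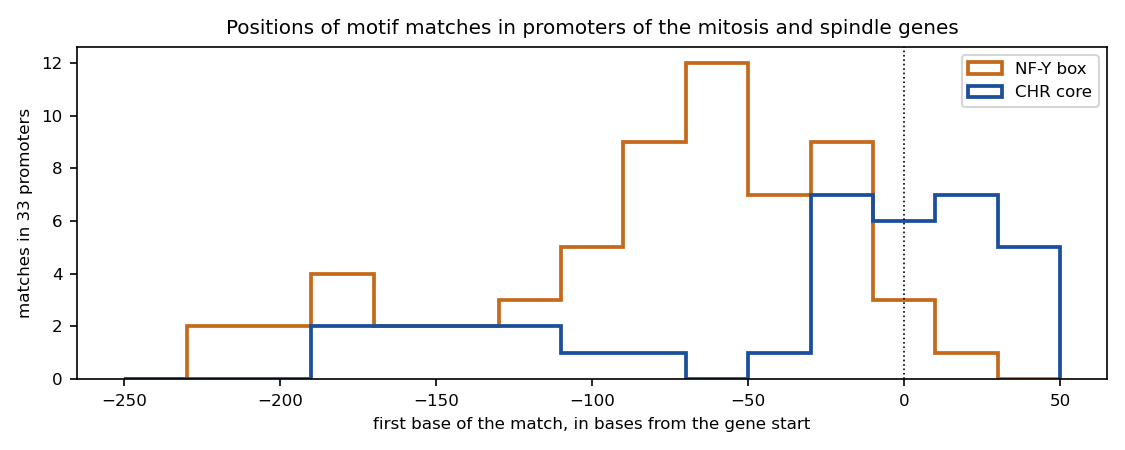
Positions of matches in the 33 promoters of the mitosis and spindle genes, as the distance in bases of the first base of a match from the annotated gene start (0), in bins of 20 bases. Orange shows CCAAT (NF-Y) boxes and blue shows CHR cores: boxes were most frequent between 90 and 50 bases before the start, and cores from 30 bases before it onwards.

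The libraries held 7078941 to 10948932 counts on genes. They fell into 2 sets by the percentage of reads outside annotated features, 57.3 to 59.43% in 7 libraries (set 1) and 52.51 to 53.77% in the other 7 (set 2). Both DMSO libraries belong to set 1, together with replicate 1 of each other group. The sets differed in these genes: 22 of the 37 were higher in set 2 and 1, Plk1, was lower (log2 difference -0.63), with a median of 0.34, against a median of 0.04 over all genes tested. Of all 16155 genes tested, 3549 were higher in set 2 and 3245 lower, so the sets differed broadly. Among the 37, Hmmr (0.90), Bub1 (0.89) and Nusap1 (0.89) differed most. The fits therefore carry a term for the set, and changes were also read within each set. Markers matched the label of the cells. The summed level of 8 embryonal carcinoma markers was 4430 to 5550 CPM (gene counts scaled to a common total by library size and TMM) at 0 h, and 1960 and 1130 CPM after 48 h of RA, when 8 of 8 fell. The sum of 9 primitive endoderm markers was 170 to 355 CPM at 0 h and 7170 and 5270 CPM at 48 h, when 9 of 9 rose. In DMSO these sums were 5570 and 6080 CPM, and 364 and 345 CPM. Fibroblast markers summed to 6.87 to 30.2 CPM and blood markers to 0.278 to 1.54 CPM in the 14 libraries. At 48 h the fibroblast markers Col1a1 (2.87 and 2.17 CPM), Pdgfrb (1.95 and 5.34 CPM) and Twist2 (1.03 and 0.918 CPM) were higher than at 0 h. Thy1 was lower, at 1.03 and 1.25 CPM, and Col1a2 was not tested. The part of the change from carcinoma to endoderm markers in the results below was not tested.

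After 48 h of RA many of the mitosis and spindle genes were lower than at 0 h. Of the 37, 18 fell and 2 rose at an adjusted p under 0.05 (edgeR quasi-likelihood test, adjusted over all 16155 genes), with a median log2 change of -0.32 and a range from -0.93 to 1.25. The background was broad, since 48.8% of all genes tested were called, 22.9% lower and 25.8% higher, with a median log2 change of 0.02. The share of the 37 that fell, 48.6%, was thus above the background share, and the share that rose, 5.41%, below it. In bulk RNA, fewer cells in mitosis and less of a transcript per cell cannot be told apart. Falls were modest: Cdc20, the largest, was 0.525 times its level at 0 h. The 37 genes together took 5691 to 6998 CPM in the 4 libraries at 0 h and 4429 and 5418 CPM at 48 h, so that both RA libraries were below all 4. Among the 37 the falls were uneven across roles. All 4 genes of the passenger complex, 4 of 5 checkpoint genes, all 4 genes of chromosome separation and exit, 4 of 7 entry genes and 2 of 5 midzone genes fell, while none of 6 kinetochore genes and none of 6 spindle motor and microtubule genes did. Whether roles differ from each other was not tested. In a wider list given below, 35.7% of other kinetochore and centromere genes and 32.1% of other spindle and centrosome genes fell.

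**Figure D2:**
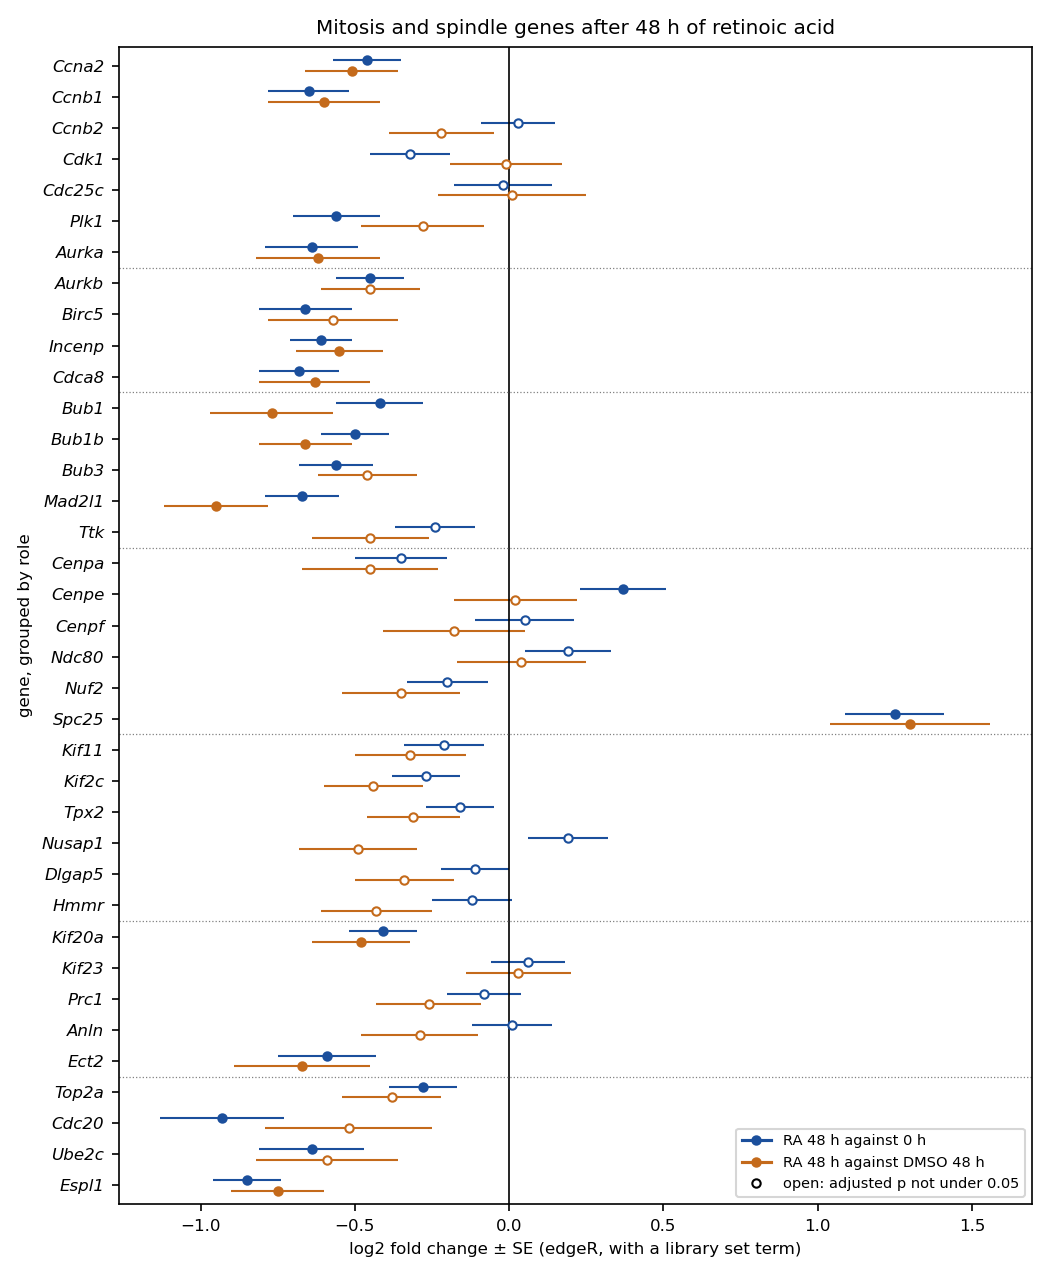
Log2 fold change with its standard error for each of the 37 genes after 48 h of RA against 0 h (blue) and against 48 h of DMSO (orange), in order of role; open points did not pass an adjusted p of 0.05. Most points lie left of 0, Cdc20 and Espl1 the furthest against 0 h, and Spc25 stands alone on the right at 1.25 and 1.30.

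The genes that separate chromosomes and end mitosis fell, with a median log2 change of -0.74. Cdc20 measured 310, 252, 413 and 273 CPM in the 4 libraries at 0 h and 207 and 144 CPM at 48 h, and 277 CPM in DMSO at 48 h. Both RA libraries lay below all others, and the fall was -0.93 ± 0.20 (log2 ± SE, adjusted p = 0.00163). Cdc20 overlaps the gene Elovl1, which rose by 0.98 ± 0.17 (adjusted p = 0.000368), and reads shared by overlapping genes cannot be assigned without strand. Espl1, which encodes separase, the protease that opens cohesin, measured 225, 201, 209 and 193 CPM at 0 h and 122 and 114 CPM at 48 h, with 208 CPM in DMSO. The groups were well apart, at -0.85 ± 0.11 (adjusted p = 2.29e-05). Ube2c, the E2 enzyme of the anaphase-promoting complex, fell by 0.64 ± 0.17 (adjusted p = 0.00633), from 104 to 189 CPM at 0 h to 81.1 and 92.9 CPM. Top2a, the topoisomerase that untangles sister chromatids, was the most abundant of the 37 in CPM and changed least of this group, at -0.28 ± 0.11 (adjusted p = 0.0488). Its 0 h libraries ran from 639 to 854 CPM and overlapped those at 48 h, at 509 and 650 CPM. With the replicate number as a block, Top2a missed the threshold (adjusted p = 0.0532).

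The passenger complex, which is made of the kinase AURKB, its scaffold INCENP, survivin (Birc5) and borealin (Cdca8), fell as a whole, with a median of -0.64. Cdca8 measured 178, 166, 200 and 183 CPM at 0 h, then 111 and 117 CPM at 48 h, against 179 CPM in DMSO at 48 h. The change was -0.68 ± 0.13 (adjusted p = 0.000796). For Birc5 the values were 178, 135, 168 and 163 CPM at 0 h, and 93.9 and 112 CPM at 48 h. It fell by 0.66 ± 0.15 (adjusted p = 0.00217). Neither gene overlapped between the groups, and the DMSO libraries, at 163 and 179 CPM for Cdca8 and 180 and 161 CPM for Birc5, were near those at 0 h. Incenp fell by 0.61 ± 0.10 (adjusted p = 0.000287), from 245 to 260 CPM to 177 and 160 CPM, and Aurkb by 0.45 ± 0.11 (adjusted p = 0.00479), from 93.4 to 109 CPM to 68.5 and 77.9 CPM.

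Of the spindle checkpoint, Mad2l1, Bub3, Bub1b and Bub1 fell. Mad2l1 encodes MAD2, the protein that holds CDC20. It was steady at 0 h, at 91, 87.3, 89.6 and 86.1 CPM, and was 51.4 and 57.7 CPM at 48 h, with 101 CPM in DMSO. The change was -0.67 ± 0.12 (adjusted p = 0.000444) and the groups did not overlap. Bub3, which brings BUB1 and BUBR1 to kinetochores, fell by 0.56 ± 0.12 (adjusted p = 0.00126), and Bub1b, which encodes BUBR1, by 0.50 ± 0.11 (adjusted p = 0.0018). The kinase gene Bub1 fell by 0.42 ± 0.14 (adjusted p = 0.0271), but it differed strongly between the library sets and without replicate 1 of 0 h the change was -0.31 (adjusted p = 0.107). Ttk, whose product MPS1 starts checkpoint signalling, was at -0.24 ± 0.13 and did not pass (adjusted p = 0.145).

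Among the entry kinases and cyclins, Ccnb1, Aurka, Plk1 and Ccna2 fell. Ccnb1, a B-type cyclin and the partner of CDK1, measured 91.3, 118, 119 and 141 CPM at 0 h and 60.6 and 79.6 CPM at 48 h, with 92.3 CPM in DMSO. Both RA libraries were below all at 0 h (-0.65 ± 0.13, adjusted p = 0.00103). A pseudogene, Ccnb1-ps, held 39.2, 13, 12.7 and 14.6 CPM at 0 h and 25.9 and 6.34 CPM at 48 h, so reads that could belong to either copy make the level of Ccnb1 uncertain. Plk1, the polo-like kinase, measured 233, 147, 192 and 189 CPM at 0 h and 185 and 110 CPM at 48 h. These values overlap, because Plk1 is higher in set 1, where it went from 233 to 185 CPM. The change was -0.56 ± 0.14 (adjusted p = 0.00488) and, without the set term, -0.37 (adjusted p = 0.433). Aurka, the centrosome kinase, fell by 0.64 ± 0.15 (adjusted p = 0.00246), from 124 to 171 CPM to 99.4 and 89.5 CPM. It overlaps Cstf1, which was lower by a log2 change of -0.62 ± 0.14. Ccna2, which encodes cyclin A, was at -0.46 ± 0.11 (adjusted p = 0.00266), and Exosc9, which it overlaps, was at -0.49 ± 0.12 (adjusted p = 0.00309). Cdk1 itself measured 215, 281, 326 and 319 CPM at 0 h and 184 and 249 CPM at 48 h. The groups overlap and the change of -0.32 ± 0.13 did not pass (adjusted p = 0.0565). Ccnb2, the other B-type cyclin, stayed at 0.03 ± 0.12 (adjusted p = 0.872), and the phosphatase gene Cdc25c at -0.02 ± 0.16 (adjusted p = 0.929).

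Of the 6 genes of centromere and kinetochore, Spc25 and Cenpe rose and the other 4 did not pass. Spc25, a subunit of the NDC80 complex that ties kinetochores to microtubules, measured 51.3, 75.6, 64.5 and 97.8 CPM at 0 h and 111 and 203 CPM at 48 h, with 48.6 CPM in DMSO. Both RA libraries stood above all others at 0 h and in DMSO, and the rise was 1.25 ± 0.16 (adjusted p = 3.28e-05), or 2.37-fold. Within the sets it was 1.11 in set 1 and 1.37 in set 2. The other subunits of the complex among the 37, Ndc80 and Nuf2, were at 0.19 ± 0.14 (adjusted p = 0.288) and -0.20 ± 0.13 (adjusted p = 0.233). Spc24, the direct partner of SPC25 and not one of the 37, fell by 1.05 ± 0.15 (adjusted p = 5.74e-05). Its levels were 67.2, 75.8, 72.2 and 61.4 CPM at 0 h, 34.1 and 31.2 CPM at 48 h and 51.1 CPM in DMSO at 48 h. The partners in 1 complex thus moved in opposite directions. Nostrin, the neighbour 4565 bases from Spc25 in GRCm38.p6, went from 0.0973 to 0.211 CPM at 0 h to 9.34 and 18 CPM at 48 h. Its rise was 6.5 ± 0.43 (adjusted p = 1.59e-07). The part of reads from Nostrin in Spc25 was not tested.

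Cenpe, a kinesin that moves chromosomes along microtubules, measured 58, 94.9, 76.8 and 93.6 CPM at 0 h and 73.5 and 111 CPM at 48 h. The groups overlapped. In set 1 alone Cenpe measured 58 CPM at 0 h, 73.5 CPM at 48 h of RA, and 86.5 and 68.6 CPM in DMSO, so both DMSO libraries were also above 0 h. The change in RA was 0.37 ± 0.14 (adjusted p = 0.0369). It missed the threshold with the replicate block (0.30, adjusted p = 0.0996) and without the set term (0.19, adjusted p = 0.735). Cenpa, the histone that marks centromeres, was at -0.35 ± 0.15 (adjusted p = 0.0695) and Cenpf, a large outer kinetochore protein, at 0.05 ± 0.16 (adjusted p = 0.828).

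None of the spindle motors and microtubule proteins passed. Kif2c, which takes microtubules apart at the centromere, was at -0.27 ± 0.11 (adjusted p = 0.0637), and the spindle motor gene Kif11 at -0.21 ± 0.13 (adjusted p = 0.187). Tpx2, the activator of AURKA, was at -0.16 ± 0.11 (adjusted p = 0.233), and the microtubule binders Dlgap5 and Hmmr at -0.11 ± 0.11 (adjusted p = 0.447) and -0.12 ± 0.13 (adjusted p = 0.448). Nusap1, which bundles spindle microtubules and overlaps the gene Oip5, was at 0.19 ± 0.13 (adjusted p = 0.259).

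In the midzone group, which builds the central spindle and the cleavage furrow, Ect2 and Kif20a fell. Ect2, the exchange factor that turns on RhoA at the furrow, went from 208, 253, 218 and 257 CPM at 0 h to 115 and 173 CPM at 48 h (-0.59 ± 0.16, adjusted p = 0.00717). In DMSO at 48 h it stood at 184 CPM, below every library at 0 h and above both RA libraries. Kif20a, a midzone kinesin, fell by 0.41 ± 0.11 (adjusted p = 0.00746). It overlaps Cdc23, which was at -0.36 ± 0.12, and Brd8. Its partners in the midzone changed little: Kif23 was at 0.06 ± 0.12 (adjusted p = 0.681), the bundling protein gene Prc1 at -0.08 ± 0.12 (adjusted p = 0.618) and Anln, which encodes the furrow scaffold anillin, at 0.01 ± 0.13 (adjusted p = 0.974).

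**Figure D3:**
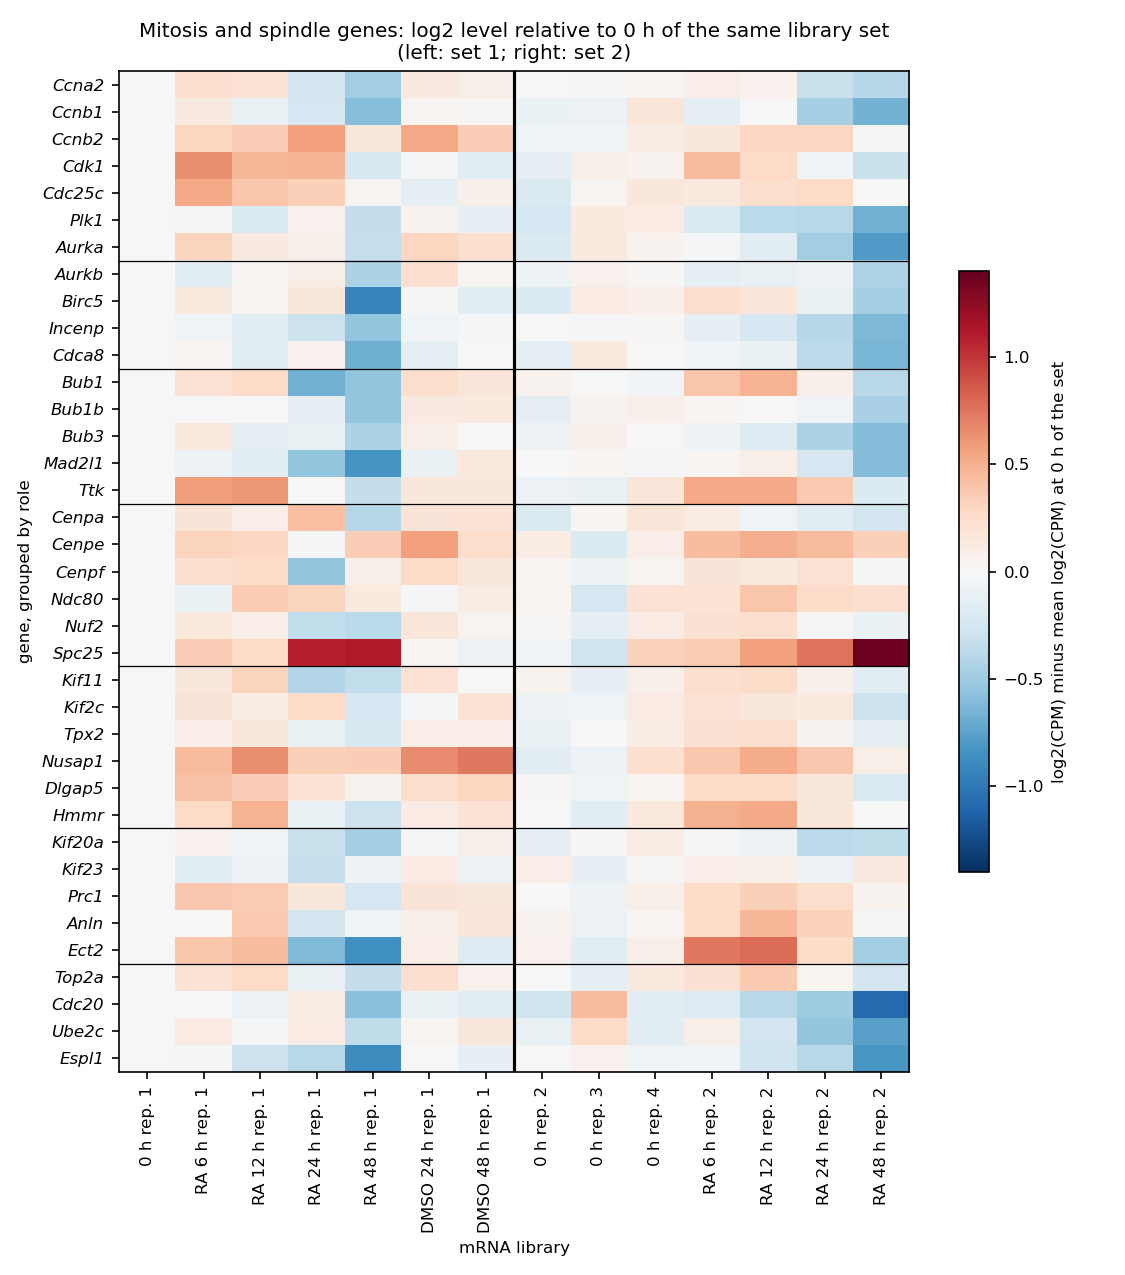
Log2 CPM of each of the 37 genes in each of the 14 mRNA libraries, relative to the mean at 0 h of the same library set (set 1 on the left, with 1 library at 0 h, set 2 on the right, with 3), grouped by role. The RA 48 h columns are mostly blue in both sets, the 6 and 12 h columns mostly red, and Spc25 is the darkest red at 24 and 48 h.

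Most of the 37 had the same direction at 48 h in both library sets. Each set holds 1 RA 48 h library, so the signs and medians by set carry no test. In a fit of set 2 alone Birc5 was at -0.44, Bub1b at -0.44 and Aurkb at -0.41. These were smaller falls than the -0.66, -0.5 and -0.45 of the fit over both sets. Within set 1, 29 of the 37 were below 0 h and within set 2, 31 were, with medians of -0.34 and -0.30 and the same sign in both sets for 31. The libraries at 48 h lay below all 4 at 0 h for 15 genes and above all 4 for 1, Spc25. Over all genes 22.7% lay below and 27.4% above. The calls rest to differing degrees on single libraries. Without replicate 2 of RA 48 h, 11 of the 20 calls at 48 h were left: Plk1, Aurka, Aurkb, Bub1, Kif20a, Ect2, Top2a, Cdc20 and Ube2c missed the threshold, with adjusted p from 0.0597 for Kif20a to 0.301 for Top2a and 0.0718 for Cdc20. Cenpe was at 0.21 (adjusted p = 0.375) without replicate 1 of RA 48 h, and at an adjusted p of 0.056 to 0.0709 without replicate 3 of 0 h, replicate 1 of RA 6 h or either RA 12 h library. Top2a missed the threshold without either RA 48 h library and without any 1 of the 0 h, RA 6 h and RA 12 h libraries but replicate 3 of 0 h (adjusted p from 0.0544). Bub3, Ccnb1, Cdca8, Espl1, Incenp, Mad2l1 and Spc25 passed in each of the 21 alternatives run.

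DMSO alone gave no call against 0 h in these genes, with edgeR or with DESeq2. Over all genes, too, 0 were called, or 0% as background. In the edgeR test 4 of the 37 had an unadjusted p under 0.05, as did 1263 of all 16155 genes. The median log2 change of the 37 in DMSO was 0.10 and the range -0.37 to 0.64. The largest values upward were Nusap1 at 0.64 ± 0.15 (adjusted p = 0.564), Cenpe at 0.51 ± 0.15 (adjusted p = 0.593) and Bub1 at 0.39 ± 0.16 (adjusted p = 0.626). Downward they were Cdc20 at -0.37 ± 0.21 (adjusted p = 0.662), Cdk1 at -0.23 ± 0.14 (adjusted p = 0.665) and Plk1 at -0.20 ± 0.16 (adjusted p = 0.712). Both DMSO libraries are of set 1, which holds 1 library at 0 h.

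Against DMSO of the same 48 h, 11 of the 37 were lower in RA and 1 was higher, with a median of -0.45, and 32 had a negative value. The background was 24.1% of all genes called, 11.5% lower and 12.6% higher. The largest falls were Mad2l1 (-0.95 ± 0.17, adjusted p = 0.00128), Bub1 (-0.77 ± 0.20, adjusted p = 0.0137) and Espl1 (-0.75 ± 0.15, adjusted p = 0.00246). The one rise was Spc25, at 1.30 ± 0.26 (adjusted p = 0.00287). The next highest values were Ndc80 at 0.04 and Kif23 at 0.03, neither of them called. Ect2, Bub1b, Cdca8, Aurka, Ccnb1, Incenp, Ccna2 and Kif20a also fell, between -0.67 for Ect2 and -0.48 for Kif20a. For Cdk1 the RA libraries at 48 h, at 184 and 249 CPM, lay on both sides of the DMSO library at 192 CPM. With 1 DMSO library a time, that library was assumed to vary like the others. There were 5 calls without replicate 2 of RA 48 h, 6 without replicate 1 of it, 7 without replicate 2 of RA 6 h and 19 without replicate 3 of 0 h. Aurka, Kif20a and Ect2 missed the threshold without replicate 2 of 0 h and without any 1 of the RA 6 h and 12 h libraries, Ect2 without replicate 4 of 0 h, and Ccnb1 or Cdca8 in some of these, with adjusted p from 0.0504 to 0.0818. Without the set term Mad2l1 and Espl1 were the 2 calls left. The comparisons with 0 h and with DMSO share the RA libraries.

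At 24 h Spc25 was the one gene called against DMSO, at 0.89 ± 0.25 (adjusted p = 0.0392), where 10.4% of all genes were called, 4.61% lower and 5.83% higher. Without replicate 1 of RA 24 h it was at 0.60 (adjusted p = 0.255). It also missed the threshold, with adjusted p between 0.0524 and 0.0655, without replicate 2 of 0 h and without any 1 of the RA 6 h and 12 h libraries. The median of the 37 at 24 h was -0.21. A test asked whether the difference between RA and DMSO was itself different at 48 h and at 24 h. It called 0 of the 37 with edgeR and 0 with DESeq2. Over all genes edgeR called 0.0619%, 0.0186% lower and 0.0433% higher. An unadjusted p under 0.05 in edgeR was found for 3 of the 37 and for 1585 of all 16155 genes. The lowest values of this difference were Kif2c at -0.68 ± 0.22 (adjusted p = 0.35), Cdca8 at -0.64 ± 0.25 (adjusted p = 0.424) and Cdc20 at -0.57 ± 0.37 (adjusted p = 0.651). The highest were Cenpe at 0.45 ± 0.27 (adjusted p = 0.625), Kif23 at 0.43 ± 0.23 (adjusted p = 0.584) and Spc25 at 0.41 ± 0.34 (adjusted p = 0.728).

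Before the falls, some of the genes were higher. At 6 h of RA, 3 of the 37 rose and none fell, with a median of 0.18. Over all genes 5.61% were called, 4.1% higher and 1.51% lower. In the edgeR test 9 of the 37 had an unadjusted p under 0.05, as did 2712 of all 16155 genes. Cdk1 rose by 0.49 ± 0.13 (adjusted p = 0.0318), to 337 and 419 CPM, above all 4 libraries at 0 h. Ect2 rose by 0.64 ± 0.15 (adjusted p = 0.022), to 272 and 404 CPM. Ttk, which measured 105, 123, 122 and 146 CPM at 0 h, rose by 0.57 ± 0.13 (adjusted p = 0.0162), to 158 and 187 CPM. All 3 genes were thus above every library at 0 h. In all, 5 of the 37 were, near the 10.3% of all genes tested that were. With the replicate block Ect2 missed the threshold (0.51, adjusted p = 0.112). Without the set term none of the 3 passed (adjusted p from 0.514 to 0.687), and without either RA 6 h library 0 calls were left. Cdk1 also missed it without replicate 1 of 0 h (adjusted p = 0.103), and without replicate 2 of 0 h, or any 1 of the RA 12 h and RA 48 h libraries, its adjusted p was 0.0581 to 0.097.

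At 12 h 5 rose and none fell, with a median of 0.20 and a background of 12.7%, 7.38% higher and 5.31% lower. Ect2 rose by 0.69 ± 0.15 (adjusted p = 0.00903), to 283 and 416 CPM, and Ttk by 0.58 ± 0.13 (adjusted p = 0.00919), to 161 and 187 CPM. Both again lay above all 4 libraries at 0 h, as 3 of the 37 did and 13.5% of all genes tested. Nusap1 rose by 0.55 ± 0.13 (adjusted p = 0.0136), Hmmr by 0.54 ± 0.12 (adjusted p = 0.0108) and Anln by 0.46 ± 0.13 (adjusted p = 0.033). These 3 overlapped the libraries at 0 h before the sets were taken into account, as Hmmr shows with 102 and 177 CPM against 72.9 to 136 CPM. The series holds no DMSO library at 6 or 12 h. In set 1 Nusap1 measured 52.5 CPM at 0 h, 82.2 CPM at 12 h of RA, and 82.8 and 87.7 CPM in DMSO at 24 and 48 h. In the same order Hmmr measured 72.9, 102, 78.7 and 83.9 CPM, and Anln 160, 206, 170 and 180 CPM. With the replicate block Anln missed the threshold (adjusted p = 0.126). Without either RA 12 h library, or without the set term, 0 calls were left, and without replicate 1 or replicate 2 of RA 24 h there were 9 and 10. Anln also missed it, with adjusted p of 0.0511 to 0.0606, without replicate 2, 3 or 4 of 0 h or without either RA 6 h library.

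**Figure D4:**
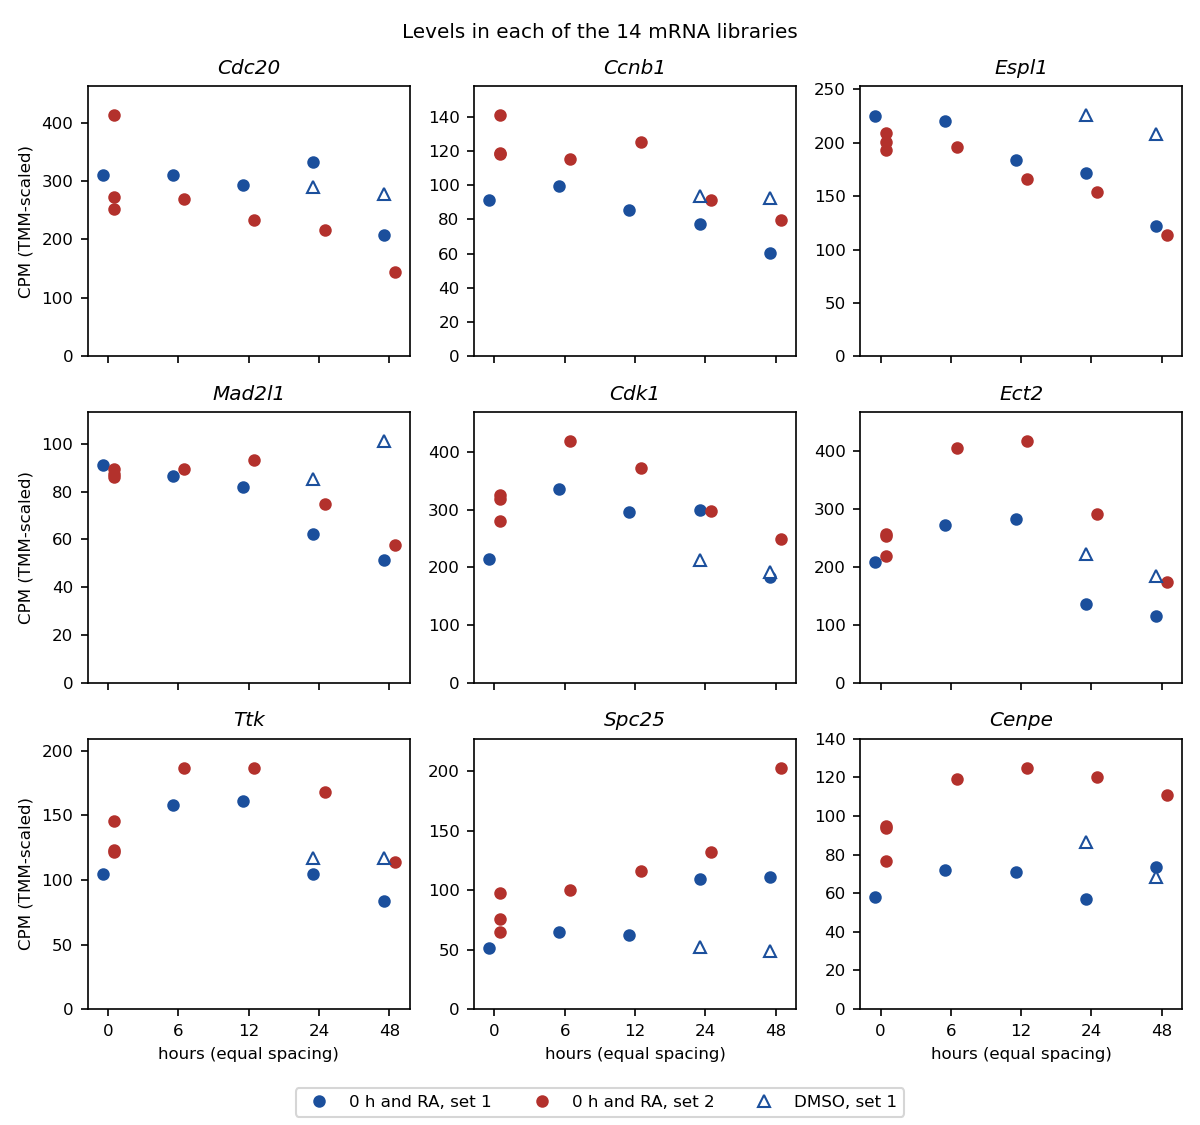
CPM of 9 of the 37 genes in each of the 14 mRNA libraries by time, with blue points for set 1, red points for set 2 and open triangles for DMSO. Ect2, Ttk and Cdk1 are above 0 h at 6 h, Cdc20, Ccnb1, Espl1 and Mad2l1 are lowest at 48 h within each set, and Spc25 is higher in RA than in DMSO at 24 and 48 h.

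At 24 h 6 of the 37 fell and 2 rose, with a median of -0.07 and a background of 29%, 13.5% lower and 15.5% higher. The share called was below the background, and the share that fell, 16.2%, was near it. Within the sets the medians were -0.02 and 0.02, with 20 and 18 of the 37 below 0 h and the same sign in both sets for 17. Spc25 rose by 0.93 ± 0.17 (adjusted p = 0.000968), to 109 and 132 CPM, and Ccnb2 by 0.40 ± 0.12 (adjusted p = 0.02), to 126 and 127 CPM. In set 1 Ccnb2 measured 84.5 CPM at 0 h, 126 CPM at 24 h of RA and 123 CPM in DMSO at 24 h. The DMSO library was thus near the RA library for Ccnb2. The count of Ccnb2 is uncertain because of a pseudogene, Ccnb2-ps, at 4.96 to 8.94 CPM. Espl1 fell by 0.38 ± 0.10 (adjusted p = 0.0136), to 172 and 154 CPM, and Mad2l1 by 0.35 ± 0.12 (adjusted p = 0.0401), to 62.1 and 74.6 CPM. Incenp (-0.37), Ccnb1 (-0.37), Kif20a (-0.34) and Ccna2 (-0.30) also fell. With the replicate block Ccna2, Ccnb1 and Kif20a missed the threshold (adjusted p of 0.0804, 0.0927 and 0.0914). All 8 missed it without the set term (adjusted p from 0.104 to 0.272), and 4 or 5 were called without replicate 1 or 2 of 0 h, either RA 6 h library, replicate 2 of RA 12 h or either RA 24 h library. Ccna2, Ccnb1 or Kif20a also missed it without replicate 4 of 0 h, replicate 1 of RA 12 h or either RA 48 h library, with adjusted p from 0.0554 to 0.0908.

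Between the RA times themselves, 2 genes fell from 12 to 24 h and none rose, where 6.26% of all genes were called, 2.73% lower and 3.53% higher. Ect2 fell by 0.76 ± 0.18 (adjusted p = 0.0268) and Bub1 by 0.65 ± 0.16 (adjusted p = 0.0315). The fall was uneven between the sets, since Ect2 went from 283 to 136 CPM in set 1 and from 416 to 290 CPM in set 2. Without replicate 1 of RA 24 h, or without either RA 12 h library or replicate 1 of RA 6 h, 0 calls were left. Without replicate 2 of RA 6 h there was 1, without replicate 3 of 0 h 4, without replicate 2 of RA 24 h 8, and with the replicate block 4. From 24 to 48 h 7 fell and none rose, where 11% of all genes were called, 4.62% lower and 6.4% higher. The largest were Birc5 (-0.72 ± 0.17, adjusted p = 0.0137), Cdca8 (-0.51 ± 0.15, adjusted p = 0.0384) and Cdk1 (-0.49 ± 0.14, adjusted p = 0.0448), followed by Espl1, Kif2c, Aurkb and Bub1b at -0.47 to -0.43. Birc5 went from 199 and 144 CPM to 93.9 and 112 CPM, so that both libraries at 48 h were below both at 24 h. Without replicate 1 of RA 48 h 0 calls were left, and without replicate 2 of it 1. Without replicate 2 of RA 6 h there was 1. Without replicate 2 of 0 h, replicate 1 of RA 6 h or either RA 12 h library there were 2, and without replicate 4 of 0 h 4. Without replicate 1 of RA 24 h none of the 7 passed: Cdca8 was at -0.29 (adjusted p = 0.348), Cdk1 at -0.27 (adjusted p = 0.39), Birc5 at -0.51 (adjusted p = 0.144) and Espl1 at -0.46 (adjusted p = 0.0833). Bub1b missed the threshold without replicate 2 of RA 24 h (adjusted p = 0.0775).

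Across the 14 libraries, with the mean of each set taken away, most of the 37 ran together. Pearson's r to the mean of the others was 0.94 for Tpx2, 0.93 for Top2a and 0.90 for Ccna2, and -0.63 for Spc25, 0.02 for Kif23, -0.01 for Ndc80 and 0.16 for Cenpe. The closest pairs were Incenp and Espl1 (0.97), Aurka and Bub3 (0.96) and Nuf2 and Kif11 (0.95). Cdc20 was most like Ube2c (0.92). These values describe libraries that share depth, time and set, and carry no test.

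A wider list held 122 other mitosis genes, all of them tested. At 48 h 44 of these fell and 3 rose against 0 h, with a median of -0.22. The share that fell was 36.1%, against 22.9% of all genes tested. Among its sets, 10 of 28 other kinetochore and centromere genes fell and 1 rose, as did 7 of 15 genes of the anaphase-promoting complex and its regulators, with 1 rise. Of 16 regulators of late cell cycle transcription 8 fell, and of 28 other spindle and centrosome genes 9. Of 15 other mitotic kinases, phosphatases and cyclins 6 fell. Of 8 condensin genes 2 fell (25%), near the share of all genes. Of 12 genes of cohesin and its protectors 2 fell (16.7%), below that share. The largest falls were E2f4 (-1.56 ± 0.13, adjusted p = 8.55e-07), an E2F of the repressive DREAM complex, and Mybl2 (-1.09 ± 0.14, adjusted p = 3.13e-05), which encodes B-MYB, the activating partner of MuvB. Cdca5, which encodes the cohesin protector sororin, fell by 1.06 ± 0.14 (adjusted p = 4.16e-05), and E2f8, an atypical E2F, by 1.02 ± 0.17 (adjusted p = 0.000225). Spc24 is given above. The 3 that rose were Cdc25b, which encodes a phosphatase that activates CDK1, the kinetochore gene Zwint and Anapc2, a subunit of the anaphase-promoting complex. Cdc25b rose by 0.76 ± 0.16 (adjusted p = 0.00122), from 16.8 to 20.1 CPM at 0 h to 30.4 and 33.7 CPM. Its DMSO libraries, at 27.6 and 24.1 CPM, were also above all at 0 h. Against DMSO at 48 h no gene of its set was called higher. Zwint rose by 0.66 ± 0.12 (adjusted p = 0.000486) and Anapc2 by 0.44 ± 0.17 (adjusted p = 0.0496). Anapc2 missed the threshold without the set term (adjusted p = 0.0938) and was at 0.13 (adjusted p = 0.671) without replicate 1 of RA 48 h. Its adjusted p was 0.0757 to 0.2 without any 1 of the 0 h, RA 6 h and RA 12 h libraries but replicate 3 of 0 h. Foxm1, which encodes the factor that follows B-MYB at CHR promoters, was at 0.10 ± 0.11 and did not pass (adjusted p = 0.466). Without replicate 2 of RA 48 h, 18 of the 122 were called. Against DMSO at 48 h 25 were lower (20.5%) and 1 higher, where 11.5% of all genes were lower and 12.6% higher. In that comparison Mybl2 was at -1.20 ± 0.19 (adjusted p = 0.000584). At 6 h 4 of the 122 rose and none fell, at 12 h 15 rose and 3 fell, and at 24 h 6 rose and 10 fell. The shares called were 3.28%, 14.8% and 13.1%, against 5.61%, 12.7% and 29% of all genes tested.

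**Figure D5:**
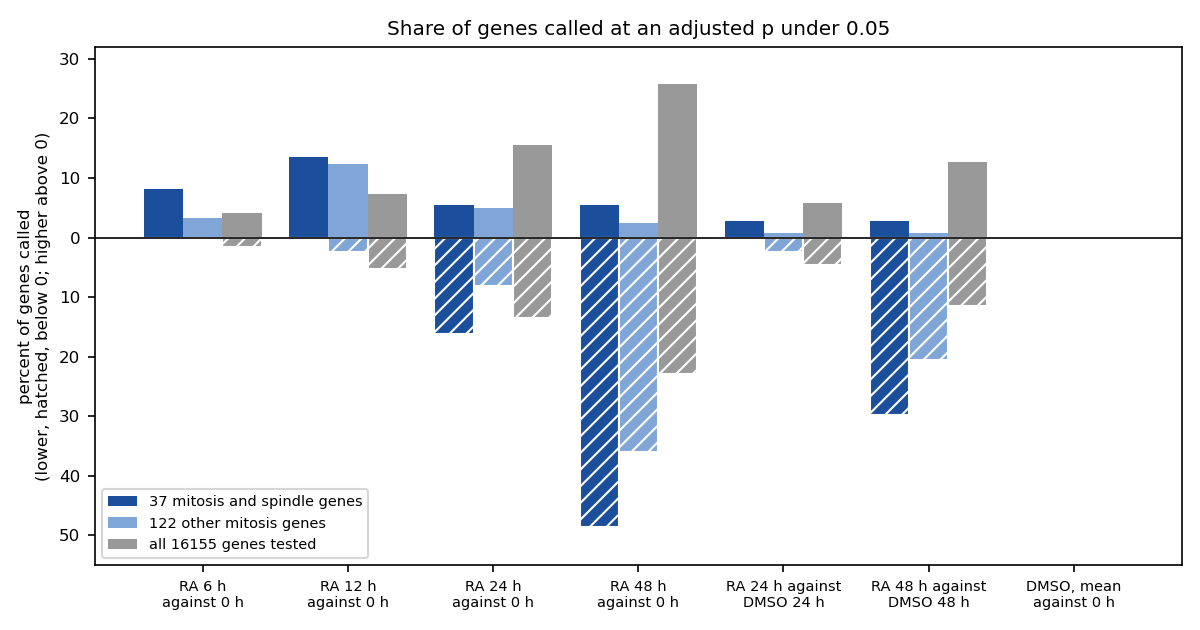
Percent of genes called higher (above 0) and lower (hatched, below 0) in each comparison, for the 37 mitosis and spindle genes (dark blue), the 122 other mitosis genes (light blue) and all 16155 genes tested (grey). At 48 h of RA the lower share is 48.6%, 36.1% and 22.9%, and DMSO against 0 h has no call in any of the 3.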

How the data were processed

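RNA-seq of F9 cells was used from 14 of the 23 samples. The authors deposited raw counts of reads for each Ensembl gene, without normalization. The submitters' processing notes name TopHat2 2.0.7, HTSeq, DESeq and build mm9. Options and strand setting are not given in the sources used here. The 5 entries for reads given to no gene held 72.52 to 76.78% of the counts in a table and were left out. Totals on genes were 7078941 to 10948932, and counting error is covered only by the fit.

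Counts were fitted with edgeR 4.0.16 (R 4.3.3) as a single quasi-likelihood model over the 14 libraries with terms for group and library set, TMM factors (0.9291 to 1.095), robust estimation, the default low-count filter by group and 6 residual degrees of freedom. Two-sided p-values were adjusted by the Benjamini-Hochberg method over 16155 genes, and a gene was called under 0.05. Changes are log2 fold changes ± SE. The spread was shared between groups, so a group of 1 or 2 libraries is taken to vary as the rest do. The library set came from the files, by a split at 55% in the percentage of reads outside annotated features. Deviations of number 1 from number 2 libraries correlated between groups (r from 0.648 to 0.775, 10 pairs). Number 1 always lay in set 1 and number 2 in set 2, so the set difference is part of every such deviation. The correlation therefore does not show that the numbers are pairs, and pairing and set cannot be told apart.

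On simulated data for RA 48 h against 0 h (16155 genes), the fit recovered 52% of 100 genes changed 2-fold and 97% of 100 changed 4-fold, and called 22 unchanged genes. The alternatives were no set term, RLE, DESeq2 1.42.0, other filters, the replicate block, set 2 alone and each library left out. All 37 genes are named at 48 h against 0 h; elsewhere the called genes are named, or the 3 largest changes each way, and of the 122 others the 5 largest called each way with Foxm1 and Mybl2. The members and lists were chosen with earlier results of these data known. Promoters and neighbouring genes are from RefSeq GRCm38.p6, not the build of the counts; 13 of the 37 overlap another annotated gene there.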

Additional observations from a re-analysis of the deposited data

Results flagged for a closer look

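Of the 37 genes, 2 had 1 library at 0 h far from the other 3. Ccna2 measured 259 CPM in replicate 1 of 0 h, against 350 to 362 CPM in the others, and Bub1 measured 150 CPM, against 229 to 243 CPM. The gap to the nearest library was 0.883 and 0.849 of the range of the group, above Dixon's critical value for 4 samples. Chance alone sets apart about 1 in 20 groups. Replicate 1 is the only library of set 1 at 0 h, and both genes were lower in set 1.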

How the results depend on the processing

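The number of libraries, 2 at each RA time and 1 at each DMSO time, limits these results, and the calls before 48 h are lost without the set term. No result reversed. Of the genes called, 888 pairs of gene and alternative kept the call and 291 lost it. Without the set term 22 of the other mitosis genes were called, and the members called were 0 at 6, 12 and 24 h and 13 at 48 h. They were 0 from 12 to 24 h and from 24 to 48 h, 0 against DMSO at 24 h and 2 at 48 h. Over any RA time the members called were 2, and 27 with the set term, when 48% of all genes were called. Without the set term the median was -0.08 for DMSO against 0 h, -0.06 for RA against DMSO at 24 h and -0.27 at 48 h. In set 2 alone they were 0 at 6 h, 1 at 12 h, 0 at 24 h, 11 at 48 h, 0 in both steps between RA times, 4 over any time and 21 of the other mitosis genes. With DESeq2 they were 10 at 12 h, 2 against DMSO at 24 h and 5 from 12 to 24 h. RLE gave 4 from 24 to 48 h. The filter of 1 CPM in 4 libraries gave 4 from 12 to 24 h and 2 from 24 to 48 h. No filter gave 4 at 24 h, 2 against DMSO at 24 h and 3 from 24 to 48 h. The replicate block gave 4 from 12 to 24 h and, beyond the calls named above, changed no other call. It and set 2 alone hold no DMSO library. The causes were not tested. The share of all genes called in each alternative is not given here. Losses in these genes therefore cannot be told apart from losses across all genes. With each library left out, the members called ranged from 0 to 4 at 6 h, 0 to 10 at 12 h, 4 to 8 at 24 h, 11 to 22 at 48 h, 0 to 8 from 12 to 24 h, 0 to 10 from 24 to 48 h, 0 to 5 against DMSO at 24 h, 5 to 19 at 48 h and 14 to 32 over any time, the 14 without replicate 2 of RA 48 h, and the other mitosis genes from 18 to 52.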
